A study of Mus musculus with 16 samples.

Results

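The comparison described here is the deletion of *Nrf2* alone, in livers of 4 Nrf2 L-KO mice set against livers of 4 WT mice. These are 8 of the 16 RNA-seq libraries of the study, and the other 8 are 4 Gclc L-KO and 4 L-DKO livers. Libraries were assigned by the genotype in their labels, and no measured value was used to choose them. Nrf2 L-KO mice carried *Nrf2* f/f, Gclc L-KO mice *Gclc* f/f and L-DKO mice both floxed genes, while the WT controls carried *Gclc* wt/wt. Every mouse, WT included, received 2.5e11 of AAV-TBG-Cre through the tail vein (plaque-forming units in the series text, genome copies in the study's methods), and liver was taken 3 weeks later. The mice were on a C57BL/6 background and 12 to 18 weeks old, and no other treatment is named for them. The TBG promoter restricts Cre to hepatocytes, so endothelial, Kupffer, stellate and bile duct cells kept *Nrf2*. Of 56832 genes in the table, 15128 had a mean value of at least 3 over the 16 libraries and were tested.

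Values are rlog values, that is log2 counts scaled between libraries and drawn toward each gene's mean where counts are low, so a difference of 1 is a 2-fold change and changes of weakly expressed genes are understated. The depth of the libraries is unknown. In each genotype replicates 1 and 2 carried *Xist* at 14.1 to 14.65 and replicates 3 and 4 at 7.95 to 8.91, with the Y-linked *Ddx3y* at 5.08 to 5.37 and at 10.35 to 10.8. The labels do not give the sex. By these genes replicates 1 and 2 read as female and replicates 3 and 4 as male, so each group of 4 held 2 libraries of either sex. The 8 hepatocyte marker genes, albumin among them, summed to 21.43 to 21.75 on the log2 scale in WT and 21.58 to 21.82 in Nrf2 L-KO. No marker on any of the cell type lists was at 0 in all 8 libraries. Some markers on the neutrophil, erythroid, and adipocyte and pancreas lists had a mean under 3 and were not tested. Pancreatic acinar transcripts were also present, at a summed level of 10.55 to 14.64 in WT and 14.01 to 16.7 in Nrf2 L-KO, as described further on. In bulk liver, fewer cells of a type and less RNA per cell cannot be told apart.

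NRF2, encoded by *Nfe2l2*, is a transcription factor that KEAP1 holds at a low level by marking it for degradation. Electrophiles and oxidants release it from KEAP1, and it then pairs with small Maf proteins on antioxidant response elements (AREs) to drive genes of conjugation, reduction, export and NADPH supply. In liver, where foreign and endogenous compounds are conjugated to glutathione or glucuronic acid and exported, the comparison asks which transcripts need NRF2 when nothing has been done to activate it.

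The transcript of the targeted gene was not lower. *Nfe2l2* stood at 11.54, 11.62, 11.57 and 11.59 in WT replicates 1 to 4 and at 11.94, 11.89, 12.54 and 12.41 in Nrf2 L-KO. All 4 Nrf2 L-KO values lay above every WT value, yet the difference of 0.62 ± 0.21 (SE) did not pass (limma adjusted p = 0.567). Which exons were floxed is not given in the sources used here, and a value summed over all exons does not check the deletion. *Keap1* differed by -0.14 ± 0.07 (limma adjusted p = 0.727).

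In Nrf2 L-KO, 19 genes were lower and 2 higher than in WT at a limma adjusted p under 0.05, which is 0.126% and 0.0132% of the genes tested, and 0.139% together. Of the 19, 11 encode enzymes and a carrier of drug, ester, NADPH and pentose phosphate metabolism. They are glutathione transferases (*Gstm1*, *Gsta4*), glucuronosyltransferases (*Ugt2b5*, *Ugt2b35*), carboxylesterases (*Ces1b*, *Ces1g*, *Ces2c*) and an aldehyde oxidase (*Aox1*). The others are a conjugate exporter (*Abcc3*), malic enzyme (*Me1*) and transketolase (*Tkt*). The falls ranged from -0.41 to -2.3 on the log2 scale, with a median of -1.1, and 12 of the 19 reached 1. For all 21 genes the 4 Nrf2 L-KO values did not overlap the 4 WT values. Over all genes tested, 2.7% had all 4 Nrf2 L-KO values below WT and 1.83% above, 51.5% had a log2 fold change below 0, and the median change was -0.0047. Counts of list members further on are to be read beside these shares. An unadjusted p under 0.05 was reached by 1046 genes (6.91%), 475 of them lower (3.14%) and 571 higher (3.77%).

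**Figure D1:**
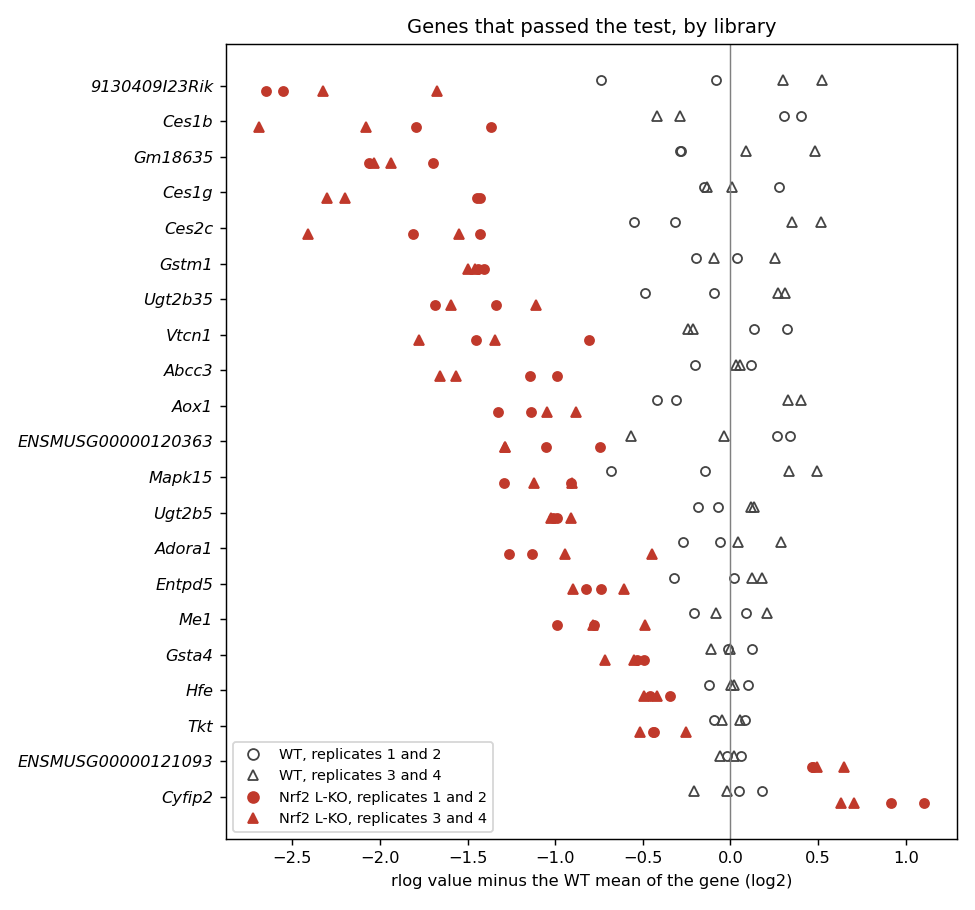
Rlog value of each of the 21 genes in each library, minus that gene's WT mean (log2, x axis). Open symbols are WT and filled symbols Nrf2 L-KO, with circles for replicates 1 and 2 and triangles for replicates 3 and 4. For 19 genes every filled symbol lies left of every open one, and for *Cyfip2* and ENSMUSG00000121093 it lies to the right.

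Of the 19 lower genes, 14 had a promoter entry in RefSeq (GRCm38.p6), a window from 250 bases before to 50 after the transcription start. The ARE core TGACNNNGC, searched on both strands with overlapping matches counted, occurred in 3 of these 14 (21.4%), beside 16.7% of all tested genes with an entry. The same core followed by an A occurred in 2 of the 14 and in 3.41% of all. The matches in the promoters of lower genes are shown because NRF2 binds this core, with the core in capitals, read on the strand that carries it.
9130409I23Rik, first match: cagagtcagcTGACCAGGCcgggctggtg
9130409I23Rik, next match: cctggtcagcTGACTCTGCaggctgtgcc
9130409I23Rik, last match: tgggtatcacTGACCCTGCacgtaaaggc
Hfe: acagcaatccTGACTCAGCagtggctcca
Me1: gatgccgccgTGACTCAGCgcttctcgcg
The windows lie at chr1:181051147-181051175 (plus strand), chr1:181051136-181051164 (minus), chr1:181051068-181051096 (minus), chr13:23710903-23710931 (minus) and chr9:86695902-86695930 (minus). The cores of *Hfe* and *Me1* are letter for letter the same, 67 and 6 bases before the start site. A match is a run of letters and not a shown binding site, and no match says nothing of sites outside the window. *Gm18635*, *Gsta4*, *Abcc3*, *Mapk15* and ENSMUSG00000120363 had no entry.

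Glutathione transferases of the mu and alpha classes, which attach glutathione to electrophiles, had a mean below WT for every member tested, and 2 of them passed. *Gstm1* stood at 15.67, 15.90, 15.77 and 16.12 in WT replicates 1 to 4 and at 14.46, 14.43, 14.37 and 14.41 in Nrf2 L-KO. The 4 Nrf2 L-KO livers were within 0.1 of each other and all lay more than 1 below the lowest WT liver. The log2 fold change was -1.45 ± 0.11 (SE, limma adjusted p = 3.67e-05), or 36.6% of the WT level. *Gsta4*, an alpha-class enzyme known for conjugating the lipid aldehyde 4-hydroxynonenal, stood at 10.71, 10.84, 10.61 and 10.72 in WT and at 10.22, 10.19, 10.001 and 10.17 in Nrf2 L-KO, a narrow and non-overlapping fall of -0.57 ± 0.07 (limma adjusted p = 0.0034).

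None of the other members of both classes passed. Their means were all below WT, but by less than the standard error for *Gstm7* and *Gstm5*. *Gstm4* (10.85, 11.13, 11.26 and 11.39 in WT, 10.39, 10.55, 10.38 and 10.41 in Nrf2 L-KO) was just outside the threshold, at -0.72 ± 0.13 (limma adjusted p = 0.0552). *Gstm6* followed at -0.53 (adjusted p = 0.068), and *Gstm3* at -1.11 (adjusted p = 0.39), *Gstm2* at -0.61 (0.428), *Gsta2* at -0.94 (0.397) and *Gsta3* at -0.65 (0.567) had groups that did not overlap. *Gsta1*, at 4.80 to 5.78 in WT, was at -0.64 (adjusted p = 0.776). *Gstm7* (-0.05 ± 0.12), *Gstm5* (-0.07 ± 0.12) and *Gstp3* (-0.12 ± 0.14) had overlapping groups and narrow intervals, with a lower bound of -0.42 for *Gstp3*. The values of *Gstp2* (-0.25 ± 0.44) and *Gstp1* (-0.58 ± 0.63) were too variable to place, and differences between members were not tested. All 4 alpha-class genes tested were below 0, 1 of them called, with a median of -0.64, and all 10 mu- and pi-class genes were below 0, 1 called, with a median of -0.56. Of 12 other transferases, among them the kappa, theta and microsomal forms, none passed and the median was -0.12. The *Gstm* genes sit in 1 cluster and resemble each other closely, and how reads shared by them were assigned is not given in the sources used here, so the values of single members are uncertain.

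Glucuronosyltransferases, which attach glucuronic acid to drugs, bilirubin and steroids, showed falls in the *Ugt2b* cluster. *Ugt2b5* stood at 14.4, 14.29, 14.60 and 14.59 in WT and at 13.46, 13.48, 13.56 and 13.45 in Nrf2 L-KO. No values overlapped, and the log2 fold change of -0.98 ± 0.09 (limma adjusted p = 2.46e-04) left 50.6% of the WT level. *Ugt2b35* stood at 12.51, 12.90, 13.27 and 13.31 in WT and at 11.31, 11.66, 11.89 and 11.40 in Nrf2 L-KO, a fall of -1.43 ± 0.18 (limma adjusted p = 0.00332). *Gm18635*, a gene model that directly neighbours *Ugt2b35* in the RefSeq order of genes, fell with it, from 6.51 to 7.28 in WT to 4.74 to 5.10 in Nrf2 L-KO (-1.93 ± 0.24, adjusted p = 0.00285). Since the *Ugt2b* copies are near-identical in parts, reads may be split among them.

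Within the same cluster *Ugt2b36* (-0.67, adjusted p = 0.397) and *Ugt2b34* (-0.43, adjusted p = 0.235) had non-overlapping groups without passing, while *Ugt2b37* was at 0.10. Of the 19 glucuronosyltransferase genes tested, 2 passed, both lower, 17 were below 0 and the median was -0.20. *Ugdh*, which makes the UDP-glucuronic acid that these enzymes use, stood at 12.21, 12.58, 12.70 and 12.64 in WT and at 11.59, 11.59, 11.96 and 12.20 in Nrf2 L-KO. The groups did not overlap, though only just, and the difference of -0.70 ± 0.15 did not pass (limma adjusted p = 0.116). *Entpd5*, an enzyme of the endoplasmic reticulum that hydrolyses UDP, did fall, from 12.95, 13.30, 13.40 and 13.46 to 12.45, 12.54, 12.67 and 12.38 (-0.77 ± 0.12, limma adjusted p = 0.0121). In the list of 7 genes of UDP-glucose and nucleotide handling it was the only one to pass, and 6 of 7 were below 0.

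The largest fall among the 19 genes belonged to a transcript without a named product. *9130409I23Rik* stood at 7.75, 8.41, 9.01 and 8.79 in WT and at 5.84, 5.94, 6.16 and 6.82 in Nrf2 L-KO. The highest Nrf2 L-KO value was well below the lowest WT value, and the fall was -2.3 ± 0.25 (limma adjusted p = 6.52e-04), to 20.3% of WT. It is the immediate neighbour of *Ephx1*, the microsomal epoxide hydrolase, in the RefSeq order. *Ephx1* stood at 13.27, 13.44, 13.60 and 13.66 in WT and at 12.45, 12.29, 12.94 and 12.96 in Nrf2 L-KO, again without overlap, but its -0.84 ± 0.16 did not pass (limma adjusted p = 0.068).

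Carboxylesterases, which hydrolyse drug esters and, for several mouse members, acylglycerols, contributed 3 genes. *Ces1g* stood at 12.81, 13.24, 12.97 and 12.83 in WT and at 11.53, 11.52, 10.76 and 10.66 in Nrf2 L-KO (-1.84 ± 0.27, limma adjusted p = 0.0103). *Ces1b* stood at 11.24, 11.34, 10.65 and 10.51 in WT and at 9.14, 9.57, 8.24 and 8.85 in Nrf2 L-KO (-1.98 ± 0.34, adjusted p = 0.0296). *Ces2c* stood at 10.08, 10.31, 10.98 and 11.14 in WT and at 8.81, 9.20, 9.08 and 8.21 in Nrf2 L-KO (-1.80 ± 0.29, adjusted p = 0.0238). Each of the 3 was at or below 28.7% of its WT level, with no overlap, and WT values of *Ces2c* were higher in replicates 3 and 4 than in replicates 1 and 2 while those of *Ces1b* were lower.

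All 14 carboxylesterase genes tested were below 0, with a median of -0.45, and 5 had groups that did not overlap. Over all genes 51.5% were below 0, and 2.7% lay below WT without overlap. Among those that did not pass, *Ces1f* was at -0.80 (adjusted p = 0.357), *Ces1d*, a triglyceride hydrolase, at -0.63 (adjusted p = 0.749) and *Ces2e* at -0.61 (adjusted p = 0.452). *Ces3a* (-0.05) and the abundant plasma esterase *Ces1c* (-0.16) were close to WT. The *Ces1* genes lie in 1 cluster of similar copies, with 5 genes between *Ces1b* and *Ces1g* in the RefSeq order, so single values carry the same doubt as those of *Gstm*.

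Export and oxidation were represented by 1 gene each. *Abcc3*, the basolateral pump that returns glucuronides and bile acids to blood, stood at 13.20, 13.52, 13.43 and 13.45 in WT and at 12.41, 12.25, 11.74 and 11.83 in Nrf2 L-KO (-1.34 ± 0.22, limma adjusted p = 0.0238). *Abcc2*, its counterpart on the bile side, was at -0.23 (adjusted p = 0.814) and *Abcc4* at -0.43 (adjusted p = 0.819), and the median of 15 ABC exporters was -0.0036, with 1 called. *Aox1*, which oxidises aldehydes and nitrogen heterocycles, stood at 11.34, 11.45, 12.17 and 12.09 in WT and at 10.63, 10.44, 10.72 and 10.88 in Nrf2 L-KO (-1.10 ± 0.17, adjusted p = 0.0145). It was the only one of 16 genes of quinone and carbonyl reductases, oxidases and epoxide hydrolases to pass, and their median was -0.07.

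Genes of NADPH supply and of the pentose phosphate pathway were listed together. *Me1*, the cytosolic malic enzyme, stood at 11.995, 12.29, 12.12 and 12.41 in WT and at 11.42, 11.21, 11.71 and 11.42 in Nrf2 L-KO (-0.76 ± 0.13, limma adjusted p = 0.0305). *Tkt*, the transketolase of the pentose phosphate pathway, stood at 11.95, 12.13, 11.998 and 12.10 in WT and at 11.61, 11.60, 11.79 and 11.53 in Nrf2 L-KO (-0.41 ± 0.07, adjusted p = 0.0331). The groups did not overlap for either gene. With the replicate number as a block the adjusted p was 0.0731 for *Me1* and 0.0836 for *Tkt*, so neither passed. The entry enzyme of the oxidative branch, *G6pdx*, was at -0.29 with a standard error of 0.46 and overlapping groups, and *Pgd* at -0.24 (adjusted p = 0.926). Of the 12 genes of the list 2 passed, 11 were below 0 and the median was -0.14.

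*Hfe*, the class I-like protein through which hepatocytes sense transferrin iron, stood at 10.24, 10.46, 10.39 and 10.37 in WT and at 9.91, 10.02, 9.87 and 9.94 in Nrf2 L-KO. The fall of -0.43 ± 0.06 was small and tight (limma adjusted p = 0.0063), and *Hfe* was the only one of 17 iron and haem genes to pass. The ferritin chains *Ftl1* (15.42, 15.42, 15.40 and 15.44 in WT, 14.93, 14.995, 15.004 and 15.21 in Nrf2 L-KO) and *Fth1* lay below WT in all 4 livers, at -0.39 ± 0.13 and -0.30 ± 0.16, and did not pass (adjusted p = 0.603 and 0.749). *Blvrb*, a biliverdin reductase, was likewise at -0.43 (adjusted p = 0.657), and *Hmox1*, which opens the haem ring, was at 0.38 with overlapping groups (adjusted p = 0.865).

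The remaining lower genes were on none of the lists above. *Adora1*, the adenosine A1 receptor, stood at 9.29, 9.50, 9.85 and 9.60 in WT and at 8.30, 8.42, 9.11 and 8.61 in Nrf2 L-KO (-0.95 ± 0.16, limma adjusted p = 0.0296). *Vtcn1*, the immune checkpoint ligand B7-H4, stood at 6.15, 5.97, 5.62 and 5.59 in WT and at 5.03, 4.38, 4.49 and 4.06 in Nrf2 L-KO (-1.35 ± 0.24, adjusted p = 0.0409). *Mapk15*, an atypical MAP kinase, stood at 8.34, 7.80, 8.81 and 8.97 in WT and at 7.57, 7.19, 7.57 and 7.36 in Nrf2 L-KO (-1.06 ± 0.19, adjusted p = 0.0409). The unnamed ENSMUSG00000120363 was at -1.09 ± 0.19 (adjusted p = 0.0394). The 2 higher genes were *Cyfip2*, a subunit of the WAVE complex that drives actin branching, and the unnamed ENSMUSG00000121093. *Cyfip2* stood at 6.69, 6.81, 6.43 and 6.62 in WT and at 7.74, 7.55, 7.34 and 7.27 in Nrf2 L-KO (0.84 ± 0.11, limma adjusted p = 0.0038), and ENSMUSG00000121093 differed by 0.52 ± 0.08 (adjusted p = 0.0121).

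Several genes known as NRF2 targets under stress were not among the 21, although *Me1*, chosen with them, was. *Nqo1*, the quinone reductase, stood at 8.81, 9.16, 8.31 and 8.05 in WT and at 8.28, 8.35, 7.53 and 7.35 in Nrf2 L-KO. Each Nrf2 L-KO value lay below the WT value of the same number, but the groups overlapped and -0.70 ± 0.31 did not pass (limma adjusted p = 0.72). *Gclc* and *Gclm*, the subunits of the first enzyme of glutathione synthesis, were at -0.42 ± 0.23 and -0.10 ± 0.10 (adjusted p = 0.762 and 0.915), and *Gsr*, which reduces oxidised glutathione, at -0.10 ± 0.16. *Txnrd1*, the cytosolic thioredoxin reductase, was at -0.32 ± 0.17 with groups apart (adjusted p = 0.748), and *Srxn1*, which repairs peroxiredoxins, at -0.37 ± 0.44. The 95% interval of *Gclm*, -0.31 to 0.12, held no fall as large as that of *Gstm1*, whereas that of *Srxn1*, -1.32 to 0.57, was wide.

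Across the lists, the medians lay furthest below 0 for the 4 alpha-class transferases (-0.64), the 10 mu- and pi-class transferases (-0.56) and the 14 carboxylesterases (-0.45), beside -0.0047 for all genes. None of 17 thioredoxin and peroxiredoxin genes passed (median -0.16, 14 below 0), and none of 13 genes of glutathione synthesis and recycling (median -0.04, 8 below 0). None of 31 proteasome subunits passed either, and their median was -0.01. None of 18 genes of fatty acid synthesis passed (median -0.09, 11 below 0), with *Scd1* at 0.07 ± 0.29 and *Fasn* at -0.14 ± 0.26. None of 24 genes of cholesterol synthesis passed, although 23 were below 0, with a median of -0.19. Among 44 cytochrome P450 genes of families 1 to 3 none passed, although *Cyp2a5*, the mouse coumarin hydroxylase, lay below WT in all 4 livers (14.42, 15.10, 13.84 and 14.13 against 12.98, 13.81, 12.59 and 11.05, adjusted p = 0.499).

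**Figure D2:**
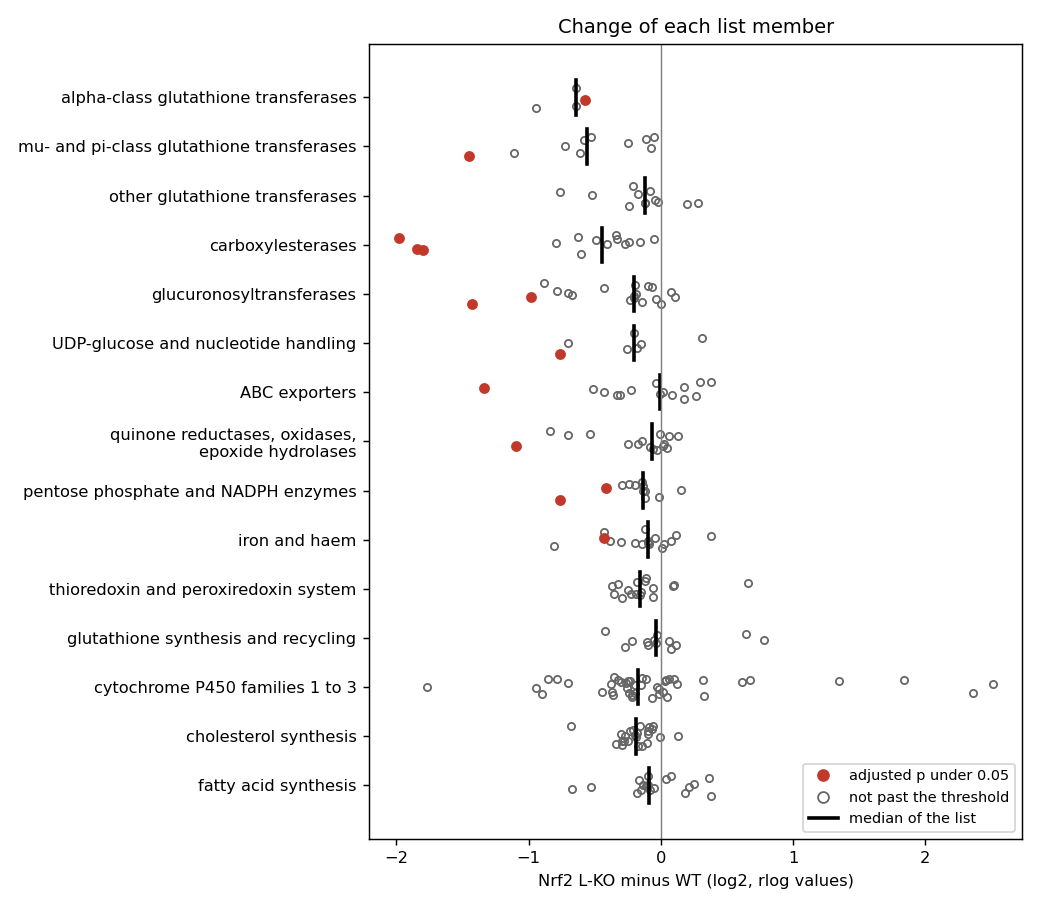
Log2 fold change of Nrf2 L-KO against WT (x axis) for each tested member of 15 gene lists, 1 circle a gene. Red circles passed the limma test, open circles did not, and the bar is the median of the list. The bars of the alpha- and mu-class transferases and the carboxylesterases lie at -0.64, -0.56 and -0.45, and the other bars between -0.20 and 0.

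With replicates 1 and 2 against 3 and 4 as a covariate, limma called 36 genes lower (0.238%) and 4 higher (0.0264%), and all 21 were among them. Of the 19 added genes, 7 also passed with the replicate number as a block, among them *Ephx1* (adjusted p = 0.00307 with the pair, 0.0141 with the block), *Ugdh* (0.00577 and 0.0193), *Gstm3* (0.00867 and 0.0201) and *Gstm4* (0.0364 and 0.0278). The other 12 did not, among them the exporter *Abcg2* (0.025 and 0.0731), the aldehyde dehydrogenase *Aldh1a7* (0.0398 and 0.0731) and the aldo-keto reductase *Akr7a5* (0.0486 and 0.142). *Abcg2* shows what the covariate removed: WT values were 10.52, 10.59, 11.36 and 11.44 and Nrf2 L-KO values 10.08, 10.002, 10.99 and 10.78, a difference of -0.51 in replicates 1 and 2 and -0.52 in replicates 3 and 4. *Tsku*, a secreted hepatic protein, had the lowest fold change of the 40 genes (-2.31, adjusted p = 0.0494, and 0.11 with the block), with 9.19, 9.49, 11.05 and 10.76 in WT and 7.68, 7.68, 7.66 and 8.21 in Nrf2 L-KO. The change was -1.66 in replicates 1 and 2 and -2.97 in replicates 3 and 4, and the difference between the pairs, -1.30 ± 0.69, did not pass (adjusted p = 0.452). Of the added genes *Flvcr2*, a haem and choline carrier (0.86, adjusted p = 0.0355, and 0.0998 with the block), and *A1bg*, a plasma protein expressed mainly in replicates 1 and 2 (2.44 there, 1.05 in replicates 3 and 4, adjusted p = 0.0465, and 0.122 with the block), were higher.

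**Figure D3:**
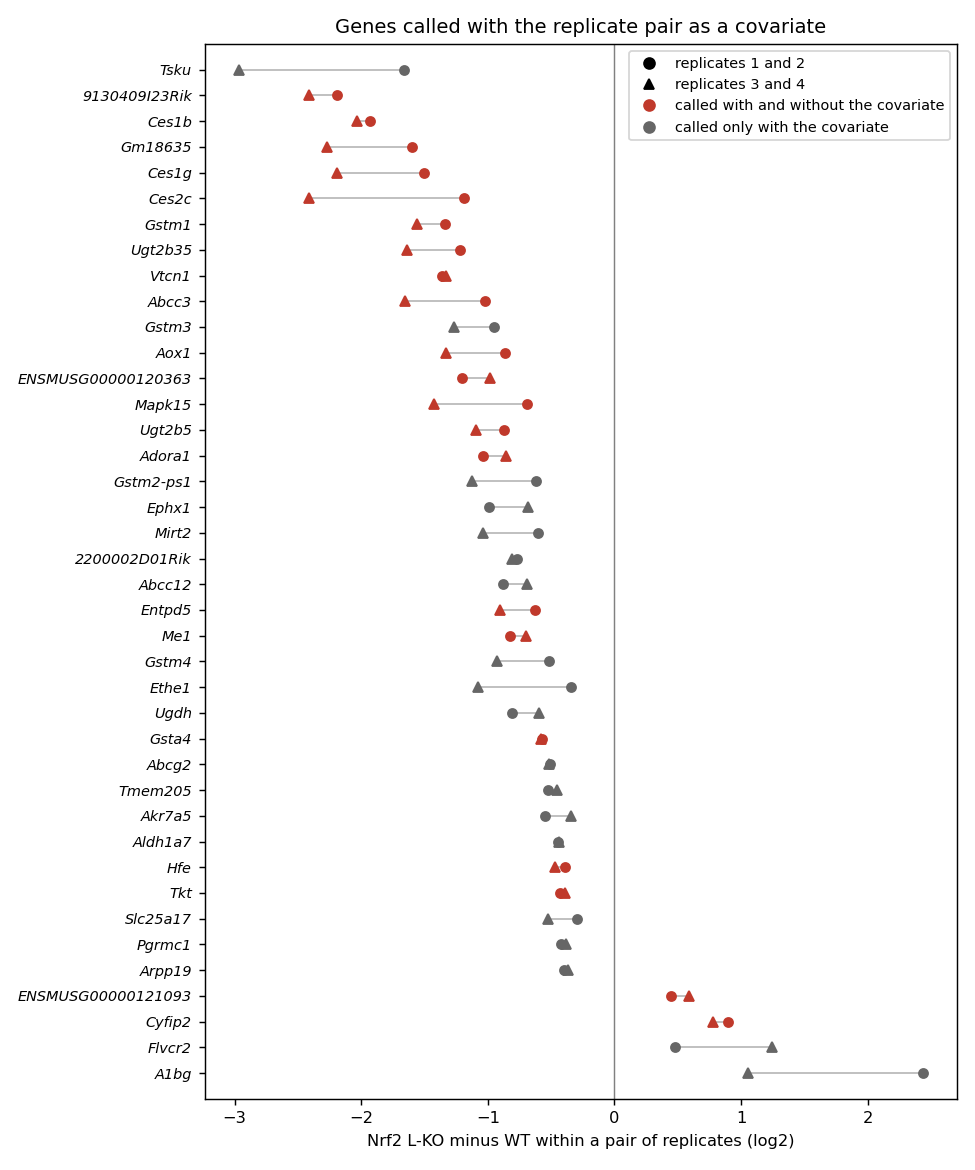
Nrf2 L-KO minus WT (log2, x axis) within replicates 1 and 2 (circles) and within replicates 3 and 4 (triangles) for the 40 genes called with the replicate pair as a covariate. Red genes were also called without it. For every gene both symbols lie on the same side of 0, which was certain in advance where the groups do not overlap.

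All 19 lower genes were lower within both pairs, as had to be the case for groups that do not overlap. The difference between the pairs passed for 0 of 15128 genes (lowest limma adjusted p = 0.0523), with 1969 at an unadjusted p under 0.05 (13%), and with median centring 9 passed, none of them among the 21. Of those 9, 3 liver genes are given here, picked after their values were seen. *Por*, the electron donor of the P450 enzymes, stood at -0.63 in replicates 1 and 2 and 0.89 in replicates 3 and 4, *G6pc*, glucose-6-phosphatase, at 0.92 and -1.58, and *Mup14*, a male-biased urinary protein of a multi-copy family, at -0.0046 and -2.77. Clock genes moved with these pairs: *Arntl* (BMAL1) stood at 7.48, 7.18, 9.34 and 9.57 in WT and at 9.44, 8.47, 6.95 and 8.52 in Nrf2 L-KO, and *Dbp* at 11.28, 11.36, 8.40 and 8.14 and at 7.49, 10.03, 11.53 and 10.07. The WT pairs were far apart. Nrf2 L-KO replicates 1 and 3 lay near or beyond the opposite WT pair, while Nrf2 L-KO replicates 2 and 4 lay between the WT pairs. The hour of collection is not given in the sources used here. The pairs also differ in sex by *Xist* and the Y-linked genes. The part of either in the difference between the pairs was not tested.

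The same deletion could be read again in L-DKO against Gclc L-KO, where *Gclc* was targeted in both groups. None of these 8 libraries entered the first difference of means. They did enter its filter and its estimate of spread, and so helped decide which genes were called. All 19 genes were lower there as well (limma adjusted p under 0.05, which 4.8% of all genes reached in that direction and 3.84% in the other), and 18 of the 19 fell further than in Nrf2 L-KO against WT, with *Me1* the exception (-0.52 against -0.76). With only those 8 libraries in the fit 18 of the 19 passed. The difference between both contrasts passed for 6 of the 19 (0.687% of all genes, in either direction), each with the larger fall in L-DKO: *Gstm1* (-3.31 against -1.45), *Ugt2b35* (-2.95 against -1.43), *Ugt2b5* (-2.20 against -0.98), *Entpd5* (-1.89 against -0.77), *Gsta4* (-1.39 against -0.57) and *Tkt* (-0.93 against -0.41). The 3 carboxylesterases showed no such difference that passed, and for *Ces1g* it was -0.08 ± 0.38 (-1.93 against -1.84, adjusted p = 0.94). Over all 14 carboxylesterases tested, the median in L-DKO against Gclc L-KO was -0.10, beside 0.0029 for all genes. It was -2.48 for the alpha-class and -1.94 for the mu- and pi-class transferases. *Cyfip2*, higher in Nrf2 L-KO, was at 0.10 ± 0.11 in L-DKO against Gclc L-KO (adjusted p = 0.637), and there the difference did pass (-0.74 ± 0.16, adjusted p = 0.046).

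**Figure D4:**
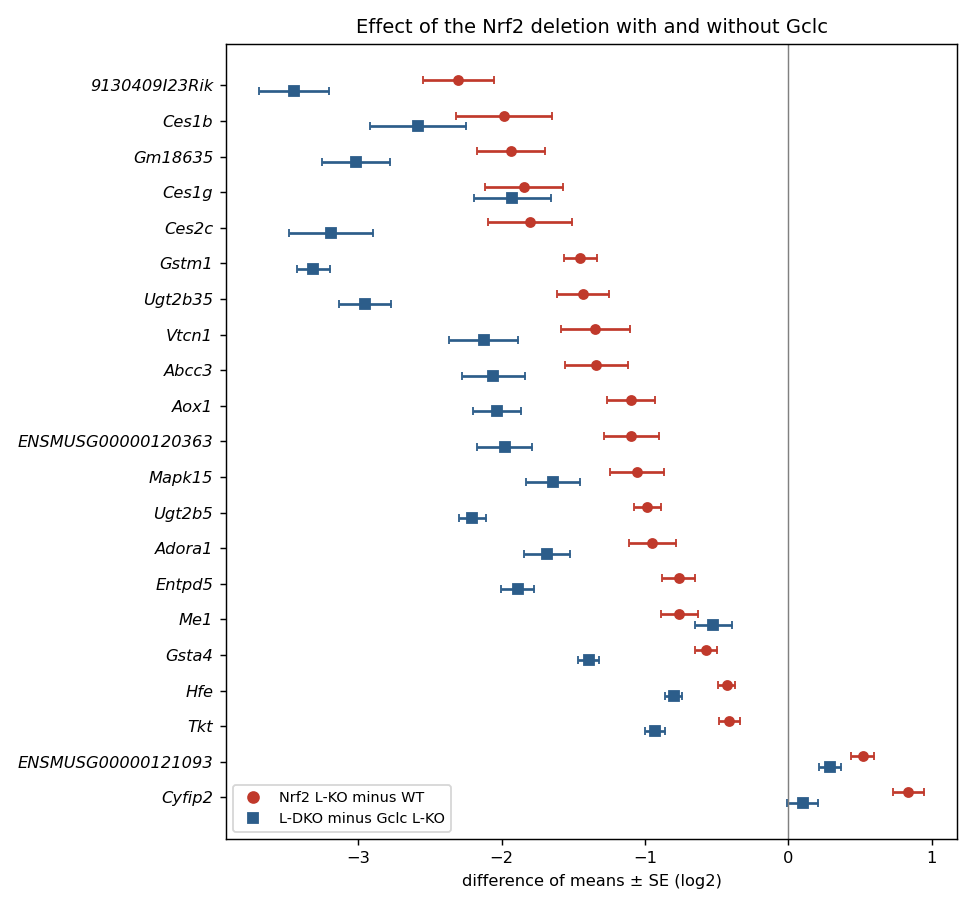
Difference of means with its standard error (log2, x axis) for the 21 genes in Nrf2 L-KO against WT (red circles) and L-DKO against Gclc L-KO (blue squares), 4 libraries a group. All 19 lower genes are left of 0 in both, and for 18 of them blue lies left of red, with *Me1* the exception.

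Against the shared WT livers, 17 of the 19 were higher in Gclc L-KO (10.6% of all genes were) and 14 of the 19 lower in L-DKO (6.17% of all genes). In Gclc L-KO and then L-DKO, *Gstm1* stood at 2.43 and -0.89 against WT, *9130409I23Rik* at 1.98 and -1.47, and *Abcc3* at 0.66 and -1.39. *Ces1b* (0.51, adjusted p = 0.29) and *Mapk15* (0.28, adjusted p = 0.297) did not pass in Gclc L-KO. *Gsta4* (0.13), *Entpd5* (-0.16), *Aox1* (-0.22), *Me1* (-0.07) and ENSMUSG00000120363 (-0.60, adjusted p = 0.0613) did not pass in L-DKO against WT. These comparisons use the same 4 WT livers as Nrf2 L-KO against WT, so the values are given side by side only.

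Pancreatic transcripts varied widely among the 8 libraries. *Cpa1*, the acinar carboxypeptidase, stood at 7.32, 12.48, 7.23 and 10.72 in WT and at 11.72, 12.16, 14.6 and 12.83 in Nrf2 L-KO, and *Pnlip*, pancreatic lipase, at 7.92, 13.06, 7.81 and 11.27 and at 12.47, 12.95, 15.16 and 13.45. WT replicate 2 and all Nrf2 L-KO livers were high, and Nrf2 L-KO replicate 3 was the highest. WT replicate 4 lay below every Nrf2 L-KO liver and above WT replicates 1 and 3. With the mean of *Cela1*, *Cpa1*, *Pnlip* and *Prss2* as a covariate, a fit added after the values were seen, limma called 11 lower and 2 higher, all among the 21. The 8 genes whose calls ended were *Abcc3* (adjusted p = 0.058), *Adora1* (0.08), *Tkt* (0.138), *Ces1b*, *Me1* and *Vtcn1* (0.195 each), ENSMUSG00000120363 (0.241) and *Mapk15* (0.321). Their fold changes moved little, and that of *Abcc3* was -1.45. Of uncalled genes with all 4 Nrf2 L-KO values above WT, the largest was *Reg2*, a pancreatic regenerating-family lectin (4.85, 5.09, 4.84 and 4.79 in WT, 8.72, 9.79, 8.54 and 10.86 in Nrf2 L-KO, adjusted p = 0.39). *Reg3b*, *Reg3a*, *Reg3d*, *Dmbt1*, *Serpini2* and *Cckar* were also in the first 10, along with *Egr1*, an immediate-early factor (1.53, adjusted p = 0.397), and *Gdf15*, a secreted stress signal (6.46 to 7.03 in WT, 7.54 to 8.98 in Nrf2 L-KO, adjusted p = 0.644).

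**Figure D5:**
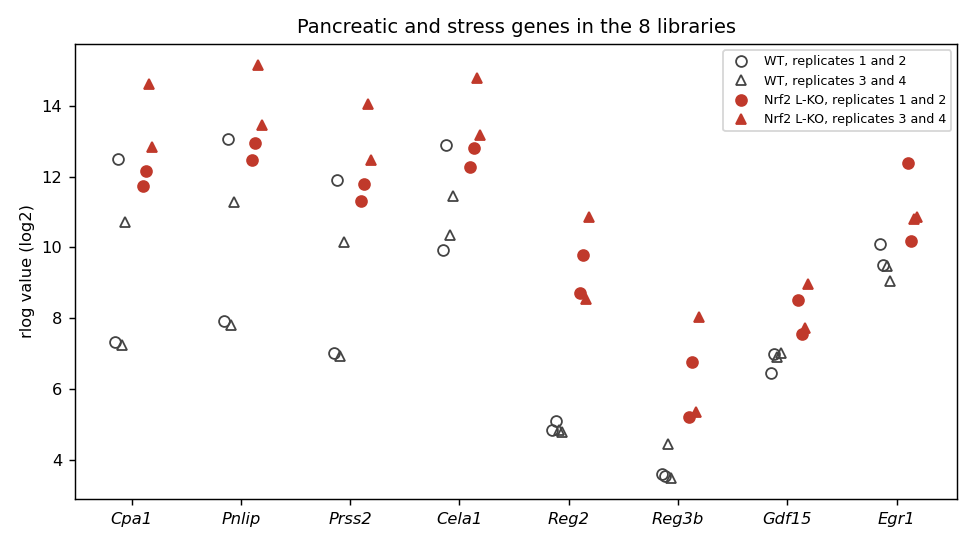
Rlog value (log2, y axis) of 4 pancreatic acinar genes, 2 regenerating-family genes, *Gdf15* and *Egr1* in the 8 libraries, with WT open and Nrf2 L-KO filled, circles for replicates 1 and 2 and triangles for 3 and 4. WT replicate 2 lies among the Nrf2 L-KO values of *Cpa1* and *Pnlip*, and WT replicate 4 lies below all of them. *Reg2* is at 4.79 to 5.09 in WT and 8.54 to 10.86 in Nrf2 L-KO.

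Markers of other liver cells did not pass in either direction. All 12 Kupffer cell and macrophage markers were above 0 (median 0.34, summed level 13.58 to 13.93 in WT and 13.69 to 14.84 in Nrf2 L-KO), as were the 12 T, B and NK cell markers (median 0.27, 8.55 to 8.77 and 8.65 to 9.27), and the 3 neutrophil markers tested (median 0.23), while the 11 stellate cell markers had a median of 0.23 and the 10 endothelial markers one of 0.07. The 6 neutrophil markers summed to 7.19 to 7.45 in WT and 7.52 to 8.19 in Nrf2 L-KO, without overlap, and *Csf3r*, the receptor for granulocyte colony-stimulating factor, stood at 6.74, 6.51, 6.39 and 6.75 in WT and at 7.09, 7.73, 6.87 and 6.88 in Nrf2 L-KO (0.54 ± 0.20, limma adjusted p = 0.644). The Kupffer median was 0.71 in replicates 1 and 2 and -0.05 in replicates 3 and 4. Their part in the changes above was not tested.

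Of the 21 calls, 8 held with any single library of either group left out: *Gstm1*, *Ugt2b5*, *Ugt2b35*, *Gm18635*, *9130409I23Rik*, *Gsta4*, *Hfe* and *Cyfip2*. *Ces1g* was lost only when Nrf2 L-KO replicate 4 was left out (adjusted p = 0.0522). The highest adjusted p over the 8 fits was 0.0659 for ENSMUSG00000121093 and *Entpd5* and 0.0948 for *Ces2c* (WT replicate 3 left out, as for *Mapk15* with 0.199). It was 0.0611 for *Aox1* and 0.12 for *Adora1* (Nrf2 L-KO replicate 2 left out) and 0.123 for *Me1* (WT replicate 4 left out). With Nrf2 L-KO replicate 4 left out it was 0.106 for *Abcc3*, 0.108 for *Ces1b*, 0.145 for *Tkt*, 0.149 for ENSMUSG00000120363 and 0.151 for *Vtcn1*. The log2 fold change kept its sign in every one of these fits, which was certain in advance because the groups do not overlap. With only the 8 WT and Nrf2 L-KO libraries in the fit, which leaves fewer degrees of freedom, 6 of the 19 lower genes passed: *Gstm1* (adjusted p = 0.00413), *Ugt2b5* (0.00958), *Gm18635* (0.0163), *Abcc3* (0.0401), *Ces1g* (0.0416) and *Gsta4* (0.048). Neither of the 2 higher genes did (*Cyfip2* 0.117, ENSMUSG00000121093 0.057).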

How the data were processed

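Liver RNA libraries (stranded poly(A) kit) of 16 mice were used. The authors deposited log2 values per gene (DESeq2 rlog). Per the submitters' processing notes, GRCm39 was the build, STAR 2.7.9a and Subread 2.0.1 with featureCounts were among the tools, and DESeq2 1.34.0 was run beside bcl2fastq 2.20.0 and fastp. No counts were at hand, so no count model was fitted, and precision rests on 4 mice a group.

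Here 1 limma fit (limma 3.58.1 under R 4.3.3, moderated by eBayes with its trend option) over all 16 libraries, 1 mean per genotype and 12 residual degrees of freedom, gave each contrast for the 15128 genes with a mean of at least 3. Tests are two-sided, p-values were adjusted by Benjamini-Hochberg over all genes of a contrast, and the threshold was 0.05. The p-values measure spread between mice of a genotype, pooled over the genotypes. In the main fit this spread includes the difference between the replicate pairs. The procedure was tested on simulated data with independent errors, so that test does not cover the deviations shared between livers given next. Same-numbered WT and Nrf2 L-KO livers deviated together (correlations 0.258 to 0.555), so replicate numbers were also fitted as a block. Within replicates 3 and 4, livers of different number correlated as well (0.361 and 0.456, against 0.258 and 0.445), but not within replicates 1 and 2 (0.0332 and 0.0722, against 0.555 and 0.363).

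Named genes were all called genes, 14 set genes, leading list members, the 10 largest uncalled falls and rises without overlap, and genes from the replicate-pair fits. The 43 lists hold 634 genes, of which 609 were tested. Members, lists and the acinar covariate were chosen with earlier results of these data known. Promoter sequences and gene order came from RefSeq GRCm38.p6, another build than the files'. Alternatives are given at the end. Plots were made in Python 3.11.15 (matplotlib 3.10.9).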

Additional observations from a re-analysis of the deposited data

Results flagged for a closer look

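In 7 of 188 groups of 4 livers, 1 value stood far from the other 3 (chance gives about 1 in 20 groups). They are ENSMUSG00000121093 in Nrf2 L-KO replicate 4 (9.10, the others 8.92 to 8.95), *Gstm4* in Nrf2 L-KO replicate 2 (10.55, the others 10.38 to 10.41), *Tsku* in Nrf2 L-KO replicate 4 (8.21, the others 7.66 to 7.68), *Alas1* in Nrf2 L-KO replicate 3 (13.41, the others 11.64 to 11.88), *Fasn* in Nrf2 L-KO replicate 3 (14.76, the others 14.46 to 14.50), *Reg3b* in WT replicate 3 (4.46, the others 3.48 to 3.60) and *Reg3d* in WT replicate 2 (4.32, the others 3.39 to 3.47).

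For 26 of 94 genes named in the text, L-DKO against Gclc L-KO differed from Nrf2 L-KO against WT (limma, adjusted p under 0.05). *Gclc* itself was left aside because it was targeted. The share over all genes was 0.687%, but the named genes were chosen in part by these data, so the shares are not alike. Among the genes called in Nrf2 L-KO the difference was -1.86 for *Gstm1* (adjusted p = 3.48e-05), -1.52 for *Ugt2b35*, -1.22 for *Ugt2b5*, -1.12 for *Entpd5*, -0.82 for *Gsta4*, -0.52 for *Tkt* and -0.74 for *Cyfip2*. Among other conjugating enzymes it was -2.15 for *Gstm4*, -2.63 for *Gstm3*, -1.19 for *Gstm2*, -2.63 for *Gsta2*, -5.23 for *Gsta1*, -3.43 for *Gstp2* and -0.69 for *Ugt2b34*. For the dehydrogenases *Ugdh* and *Aldh1a7* it was -0.98 and -0.65. For the exporters *Abcc2* and *Abcc4* it was -1.07 and -3.59, for the peroxisomal carrier *Slc25a17* -0.73, and for *Scd1*, the stearoyl-CoA desaturase, 2.01. Among stress-induced targets it was -3.42 for *Srxn1*, -3.18 for *Nqo1*, -1.21 for *Txnrd1*, -1.11 for *Gsr*, -1.06 for *Fth1* and -0.86 for *Gclm*. For *Nqo1* the change was -0.70 with *Gclc* intact and -3.88 with *Gclc* targeted.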

How the results depend on the processing

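The 21 genes kept their sign in every alternative that gave them a value, which non-overlapping groups make certain where libraries are only dropped. Of their values, 331 stayed on the same side of the threshold and 129 did not. The calls (lower and higher) were 13 (11 and 2) without a filter, 8 (7 and 1) with only the 8 libraries (neither of the 2 higher genes among them), 36 (33 and 3) with *Xist* as a covariate, 40 (36 and 4) with the replicate pair as one, 92 (70 and 22) with array weights and 13 (11 and 2) with the acinar covariate, which was added after seeing the data. Replicates 1 and 2 alone gave 5 (3 and 2), replicates 3 and 4 alone 78 (58 and 20), an adjusted p of 0.1 gave 34 (30 and 4) and an added fold change of 1 gave 12 (12 and 0). With 1 library left out the calls numbered 9 to 27, the lower ones 8 to 21 and the higher ones 1 to 6, with 9 where replicate 4 of either group was missing, 10 where WT replicate 3 was and 12 where Nrf2 L-KO replicate 1 was. The replicate block gave 26 (24 and 2). It ended the calls of *Me1* and *Tkt* and added *Ephx1*, *Gstm3*, *Gstm4*, *Ugdh*, *Mirt2*, *Slc25a17* and *Tmem205*. Genes called for the difference between replicate pairs were 0, and 9 with median centring. Other scalings gave 22 calls each. The causes were not tested. The promoter share was 14.3% with the longer motif. Among named genes that did not pass, 49 values had the other sign. With replicates 1 and 2 alone these were 1.62 for *Arntl*, 0.0445 for *Ces3a*, 0.0282 for *Fasn*, 0.92 for *G6pc*, 0.12 for *G6pdx*, 1.53 for *Npas2*, -0.63 for *Por* and -0.075 for *Scd1*, and with replicates 3 and 4 alone 0.23 for *Alas1*, 1.92 for *Ciart*, 2.53 for *Dbp*, 0.0711 for *Gstm5* and 0.13 for *Gstp3*. Array weights gave 0.00754 for *Ces1c*, 0.21 for *Ciart*, 0.63 for *Dbp*, 0.0117 for *Gstm5* and -0.0864 for *Scd1*, quantile normalization 0.00825 for *Ces3a*, and the acinar covariate 0.0891 for *Arntl*, -0.11 for *Cela1* (a part of that covariate), 0.0621 for *Ces3a*, 0.00641 for *Gstm5*, 0.0135 for *Gstp3* and -0.10 for *Scd1*. With 1 library left out the ranges were -0.45 to 0.42 for *Arntl*, -0.26 to 0.0796 for *Ces3a*, -0.97 to 0.19 for *Ciart*, -0.60 to 0.74 for *Dbp*, -2.75 to 0.00923 for *Mup14*, -0.85 to 0.0285 for *Npas2*, -0.11 to 0.38 for *Por*, -0.13 to 0.30 for *Scd1* and -0.22 to 0.74 for *Ugt2b37*. Depth is unknown, and shrinkage of the rlog values limits what weakly expressed genes can show.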

Other observations

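Clock genes split the WT livers by replicate pair, and the Nrf2 L-KO livers less cleanly. Of 17 clock genes none passed, and their median was -0.61 in replicates 1 and 2 and 0.24 in replicates 3 and 4, beside -0.0029 and -0.0017 for all genes. *Npas2* stood at 5.28, 5.21, 7.35 and 7.78 in WT and at 7.24, 6.31, 4.66 and 5.68 in Nrf2 L-KO, *Ciart* ran the other way (7.34, 7.97, 4.92 and 4.72 against 4.49, 5.42, 7.58 and 5.90), and *Alas1*, the first enzyme of haem synthesis, was at -1.85 in replicates 1 and 2 and 0.23 in replicates 3 and 4. The difference between the pairs did not pass for any of them (lowest adjusted p = 0.0681, *Npas2*).

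Of 17 cell cycle genes 15 were above 0 (median 0.25) and of 10 p53 targets 9 (median 0.25), with none called. Of 14 male-biased liver genes 11 were below 0 (median -0.29) and of 16 female-biased genes 14 above 0 (median 0.31), again with none called. Over all genes 51.5% were below 0. *Gadd45g*, a growth arrest gene, was lower than WT in all 4 livers at -1.35 ± 0.39 and did not pass (limma adjusted p = 0.432).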
